A study of Mus musculus with 16 samples.

Results

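Chemical synapses release transmitter from small vesicles, and the proteins that fill, dock, prime, fuse and retrieve those vesicles are made from a defined set of genes. Here 43 such genes, of the 56748 genes in the count table, were followed in the colon of the endothelin receptor B model of Hirschsprung disease (HSCR). They were taken by name from a list of synaptic vesicle and release genes, and 35 of them are classed here as neuron-restricted and 8 as broadly expressed from general knowledge of where their proteins are used. The broadly expressed genes are Vamp2, Syt7, Syt11, Unc13b, Synj1, Nsf, Cadps2 and Syngr1. RNA came from the longitudinal muscle and myenteric plexus (LMMP), the outer muscle coat with the ganglia that lie in it, of mice 2 to 4 weeks old. HSCR mice were homozygous for the Ednrb tm1Ywa allele (Ednrb-/-) and WT mice were their Ednrb+/+ littermates, all bred on a hybrid C57BL6/J-129Sv background and of both sexes. The 4 groups were WT proximal colon, HSCR proximal colon, WT distal colon and HSCR distal colon, with 4 libraries each. The proximal colon of HSCR mice retains ganglia, whereas their distal colon is the aganglionic segment, where ganglia are absent or sparse. The HSCR allele is constitutive, so Ednrb is disrupted in every cell of these mice and not only in the neural crest.

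In an enteric neuron a vesicle is tethered to the release site by Rab3 proteins and their partners, and scaffold proteins of the active zone hold it near calcium channels. Munc13 and CAPS proteins prime it, and the SNARE proteins Snap25, syntaxin 1 and synaptobrevin pull the vesicle and plasma membranes together. Synaptotagmins sense the calcium that triggers fusion, after which Nsf with its adaptor proteins separates the SNAREs and dynamin, amphiphysin and synaptojanin recover the membrane. Enteric neurons use this machinery to drive and to relax the gut muscle. Gut muscle, epithelium and connective tissue use related SNARE and Rab proteins for their own secretion.

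Promoters of 34 of the 43 genes were found in RefSeq windows of 250 bases before to 50 bases after the annotated start (GRCm38.p6). The 250 upstream bases of Syn1, which encodes the vesicle phosphoprotein synapsin 1, are shown with those of Rims1, an active zone gene, because the RNA levels of these genes behaved differently across the libraries described below. Each is written 5′ to 3′ on the strand of its gene. Capitals in Syn1 (chrX:20920919-20921168, minus strand) mark CAGCACC, the left part of the RE1 element that the neuronal gene repressor REST binds, and TGACGTCA, the cyclic AMP response element. Capitals in Rims1 (chr1:22806159-22806408, minus strand) mark the GC box GGGCGG.
Syn1: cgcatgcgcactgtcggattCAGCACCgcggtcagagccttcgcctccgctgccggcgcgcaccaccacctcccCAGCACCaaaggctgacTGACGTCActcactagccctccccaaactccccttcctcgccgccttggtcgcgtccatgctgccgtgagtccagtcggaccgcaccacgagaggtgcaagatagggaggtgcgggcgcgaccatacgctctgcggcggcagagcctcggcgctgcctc
Rims1: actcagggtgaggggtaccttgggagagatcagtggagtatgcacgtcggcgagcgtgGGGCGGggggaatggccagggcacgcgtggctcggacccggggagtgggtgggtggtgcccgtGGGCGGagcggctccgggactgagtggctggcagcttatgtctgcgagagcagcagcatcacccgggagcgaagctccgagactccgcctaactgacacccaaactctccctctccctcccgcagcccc
In Syn1 this RE1 part starts 230 and 176 bases before the start, and the cyclic AMP response element 159 bases before it. In Rims1 the GC boxes start 192 and 129 bases before it. Over both strands of the whole windows, CAGCACC was present in 11.8% of the 34 genes (Rph3a, Sv2c, Syn1 and Unc13a) and in 8.14% of the 27025 genes of the table. TGACGTCA was present in Syn1 alone, 2.94% of the genes against 2.03% of the table. The GC box was present in 79.4% against 38.2%, the E-box CAGCTG in 29.4% against 18.3%, and TATAAA in 5.88% against 15.7%. The median GC content was 62.3% for the 34 genes and 52.8% for the table, and these shares were not adjusted for it. A match describes the letters in the window and was not tested as a binding site.

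The 16 libraries held 21384372 to 45831881 counts each, of which 4.32 to 49.8% were mitochondrial. No libraries held identical values. Levels are given as CPM, the counts of a gene divided by the size of its library and brought to a common scale, with sizes adjusted by the trimmed mean of M-values (TMM). The submitters' tissue label names the proximal colon for all 16 libraries, and the segment was taken from the sample titles. Hoxd13, a homeobox gene of the hindgut's far end, was at 0.861, 15.3, 20.6 and 23.9 CPM in WT proximal replicates 1 to 4 and at 117 to 215 CPM in the WT distal libraries. It was at 125 CPM in the library labelled HSCR proximal 1, against 0.662 to 2.35 CPM in the other HSCR proximal libraries. In the library labelled HSCR distal 1 it was at 0.615 CPM, against 14.0 to 219 CPM in the other HSCR distal libraries. Both libraries therefore stood apart from their segment label, and each had a Hoxd13 level like that of the other segment. Whether they were exchanged was not tested. The labels were kept, and results are also given without these libraries. Counts on Ednrb, the disrupted gene, were 33.8 to 67.1 CPM in WT proximal, 7.84 to 37.4 CPM in HSCR proximal and 11.8 to 43 CPM in WT distal colon. They were 94.7 CPM in the library labelled HSCR distal 1 and 5.43 to 9.48 CPM in the other HSCR distal libraries. These counts cover the whole gene and do not test a deletion of part of it.

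A neuron index was formed as the mean log2 CPM of 9 enteric neuron markers that are not among the 43 genes (Elavl3, Elavl4, Uchl1, Tubb3, Prph, Ret, Stmn2, Stmn3 and Gap43). In WT proximal replicates 1 to 4 it was 5.54, 6.73, 8.03 and 7.85. In HSCR proximal replicates it was 2.55, 2.51, 6.49 and 6.38. In WT distal replicates it was 2.30, 4.55, 7.31 and 6.75, and in HSCR distal replicates 6.41, 2.98, 1.39 and 0.018. WT distal 1 was thus poorer in neuronal RNA than the library labelled HSCR distal 1. In tissue RNA of this kind, fewer neurons and less RNA per neuron cannot be told apart. Other cells differed as well. The summed level of 6 epithelial markers, all detected, ranged from 42.0 to 1535 CPM in WT proximal and from 154 to 12198 CPM in HSCR proximal colon, and Krt8 alone reached 3627 CPM in HSCR proximal 2. In that library 6 smooth muscle markers summed to 4208 CPM. They summed to 41023 to 91614 CPM in the other HSCR proximal libraries and to 28342 to 82762 CPM in WT proximal colon. The 8 enteroendocrine markers, whose cells carry release proteins of their own, summed to 36.0 to 91.7 CPM in WT proximal and to 8.92 to 372 CPM in HSCR proximal colon. In distal colon they summed to 4.04 to 54.4 CPM in WT and 0.891 to 34.2 CPM in HSCR. The 6 enteric glia markers summed to 339 to 772 CPM in WT proximal, 71.2 to 358 CPM in HSCR proximal, 137 to 464 CPM in WT distal and 44.7 to 246 CPM in HSCR distal colon. The part of these cells in the results below was not tested.

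**Figure D1:**
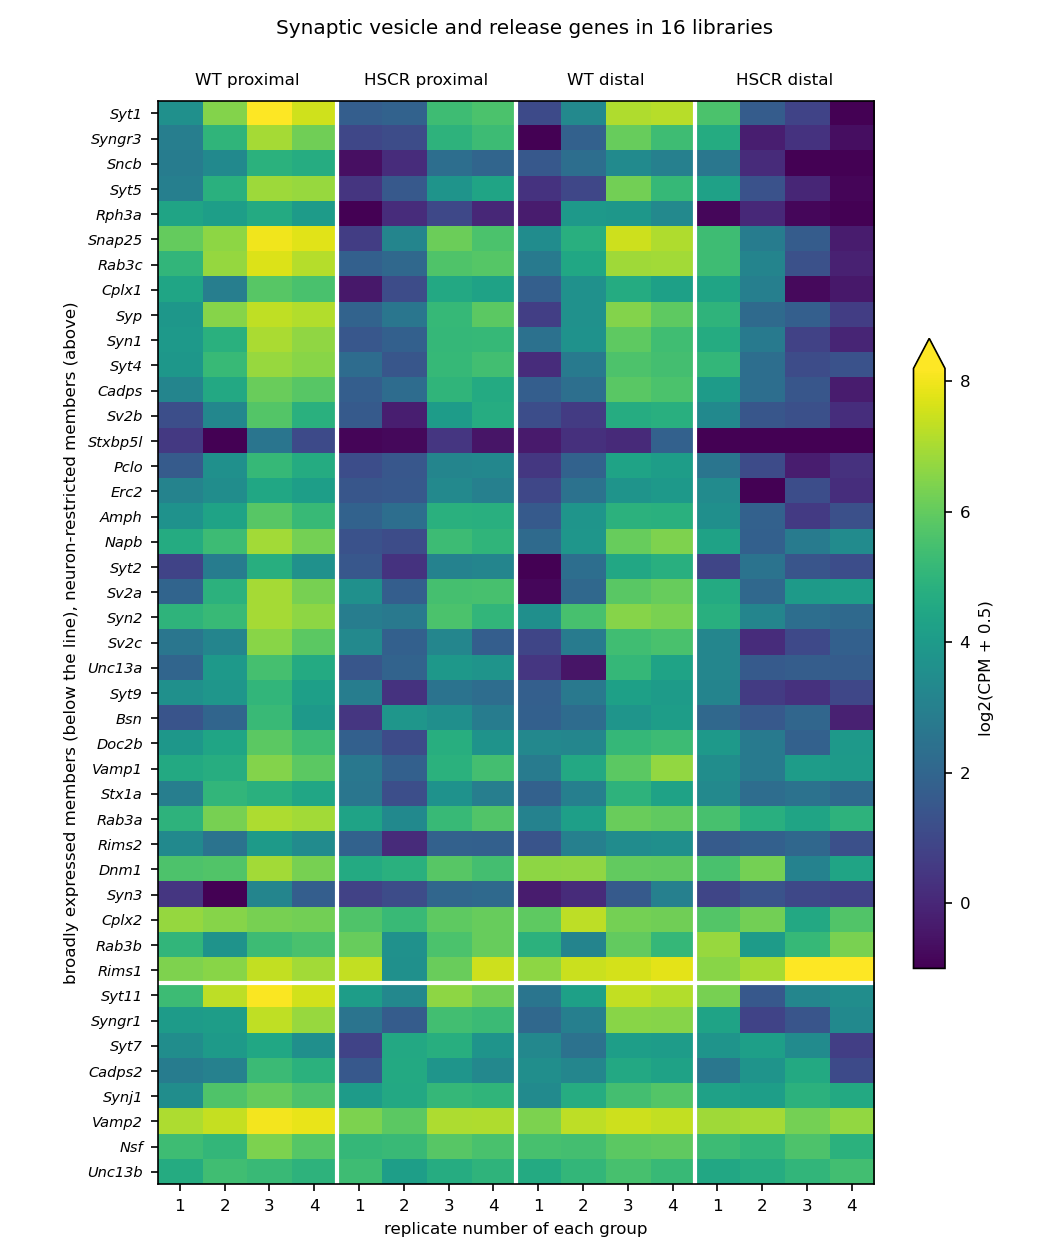
Level of the 43 genes in the 16 libraries as log2(CPM + 0.5), in colour, with libraries in columns by group and replicate and genes in rows. Neuron-restricted genes stand above the white line, ordered by how steeply they followed the neuron index, and the broadly expressed genes below it. The columns of HSCR proximal 1 and 2, WT distal 1 and HSCR distal 2 to 4 are dark for most genes above the line, while Rims1, Rab3b and Cplx2 are brighter there.

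The question in the proximal colon was whether the ganglionic segment of HSCR mice carries the same release machinery as WT. Of the 43 genes, 41 had a lower fitted level in HSCR and 2 a higher one (Rab3b and Syt7). The median log2 fold change was -1.64 for the 35 neuron-restricted genes and -0.74 for the 8 broadly expressed ones, against 0.04 for the 16664 genes tested. No gene of the list passed an adjusted p under 0.05 with a log2 fold change beyond 1 in the quasi-likelihood test of edgeR, adjusted over all genes tested by the Benjamini-Hochberg method (0 of 43), and no gene of the table did (0%). At an unadjusted p under 0.05, 14 of the 43 were lower, where 4.13% of all genes were, and none was higher. DESeq2 called 3 (Rph3a, Rims2 and Syt9, against 1.09% of all genes), and edgeR's likelihood ratio test called 1 (Rph3a, against 0.414%). The likelihood ratio test with 4 RUVr factors, which the study names, called 30 (against 16.1%) on 2 residual degrees of freedom. Every HSCR library lay below every WT library for 5 genes (Rph3a, Rims2, Syt9, Sncb and Cplx2), where 2.83% of all genes did so. The same 5 genes did so without the library labelled HSCR proximal 1, then against 4.09% of all genes. Without that library 9 genes were lower at an unadjusted p under 0.05, against 2.92% of all genes, and the median of the neuron-restricted genes was -1.31. Other libraries moved the count as well. It was 7 without WT proximal 3 (against 2.53%), 7 without WT proximal 4 (against 2.54%) and 9 without HSCR proximal 2 (against 4.05%). The highest count with 1 library left out was 20, without WT proximal 1 (against 4.70%). The library names split the samples into replicates 1 and 2 and replicates 3 and 4. Names of replicates 3 and 4 take 2 forms. They begin with CM for WT proximal 3 and 4 and HSCR proximal 4. They begin with LC for HSCR proximal 3 and for these replicates of the distal groups. The labels do not say what the forms mark, and the forms were not separated in any fit. With the split between replicates 1 and 2 and replicates 3 and 4 as a term (the library series), 29 genes were lower in HSCR proximal colon at an unadjusted p under 0.05 (against 5.74%), and none was called. Among the proximal libraries, replicates 1 and 2 hold the library labelled HSCR proximal 1 and also HSCR proximal 2, which was rich in epithelial RNA. Within these replicates 39 of the 43 genes were lower in HSCR, where 45.0% of all genes were. The median difference there was -2.03 in mean log2 CPM. Within replicates 3 and 4, 41 were lower, where 51.0% of all genes were, with a median of -1.39.

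In the distal colon the comparison was between the aganglionic segment of HSCR mice and the innervated segment of WT. Of the 42 genes tested, 40 had a lower fitted level in HSCR and 2 a higher one (Rims1 and Rab3b), while Stxbp5l had too few counts to be tested. The medians were -1.86 for the neuron-restricted and -0.51 for the broadly expressed genes, against 0.04 for 17059 genes. None was called by edgeR's quasi-likelihood test (0 of 42, and 0% of all genes). At an unadjusted p under 0.05, 7 were lower, against 1.76% of all genes. DESeq2 called Rph3a only (against 0.129%), the likelihood ratio test called none (against 0.0410%), and that test with RUVr factors called 24 (against 6.67%). For none of the 42 did every HSCR library lie below every WT library, where 1.15% of all genes did. Single libraries moved these values. Without the library labelled HSCR distal 1 the median of the neuron-restricted genes was -3.16, the median of the broadly expressed genes stayed at -0.51, and 25 of 43 genes were lower at an unadjusted p under 0.05, against 4.13% of all genes. Then 4 genes (Snap25, Sncb, Syn2 and Syt9) lay below every WT library, against 3.28% of all genes. The count of 7 genes was 16 without WT distal 1 (against 3.20%), 2 without WT distal 3 (against 0.961%), 2 without WT distal 4 (against 1.17%) and 4 without HSCR distal 4 (against 1.33%). With the library series as a term it was 5 (against 2.06%). Within replicates 1 and 2, which hold the library labelled HSCR distal 1 and the neuron-poor WT distal 1, 17 of 42 genes were lower in HSCR and 25 higher, with a median difference of 0.14. Of all genes, 48.3% were lower there. Within replicates 3 and 4, 40 of 42 were lower, where 46.3% of all genes were, with a median of -3.67. All 8 broadly expressed genes were lower there too, with a median of -1.36. The distal direction therefore did not hold within replicates 1 and 2.

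**Figure D2:**
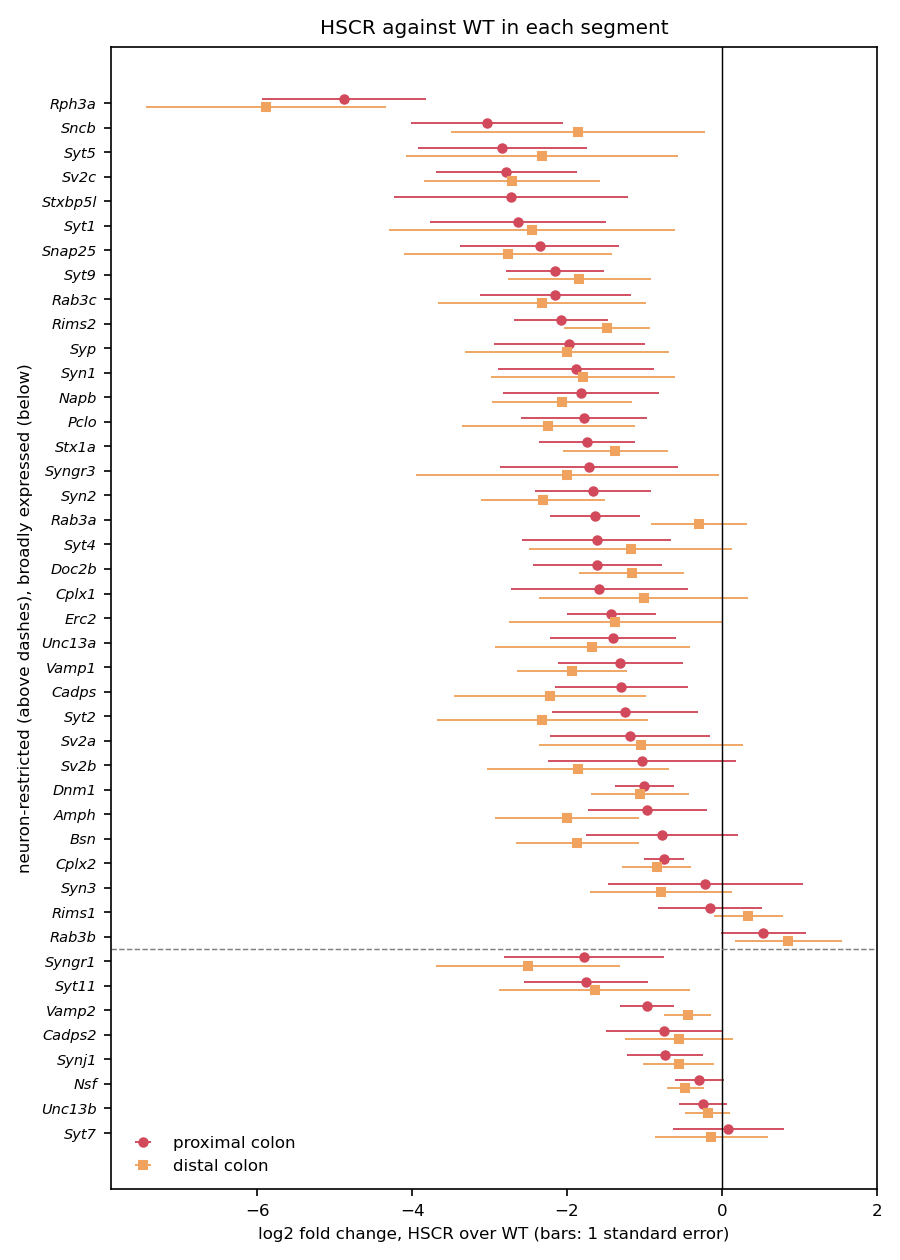
Log2 fold change of HSCR over WT for each gene in proximal (circles) and distal colon (squares), from quasi-likelihood fits of 8 libraries each, with bars of 1 standard error. Neuron-restricted genes stand above the dashed line and broadly expressed ones below it, and most points lie left of 0. Rph3a lies farthest left in both segments, while Nsf (-0.29 and -0.47), Unc13b (-0.24 and -0.18) and Syt7 (0.08 and -0.14) lie near 0.

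The SNARE genes were Snap25, Stx1a, Vamp1 and Vamp2. Snap25 (chr2:136555373-136624348 in mm39, plus strand) encodes the plasma membrane SNARE that botulinum toxin A cuts. It was at 65.4, 99, 257 and 222 CPM in WT proximal replicates 1 to 4 and at 1.10, 8.50, 69.7 and 48.3 CPM in HSCR proximal replicates. It was at 10.7, 27.4, 178 and 136 CPM in WT distal replicates and at 39.8, 6.75, 2.71 and 0.320 CPM in HSCR distal replicates. The proximal groups overlapped only in that HSCR proximal 3 exceeded WT proximal 1, and the distal groups overlapped only through the library labelled HSCR distal 1. Its log2 fold change was -2.35 ± 1.03 (SE, n = 4 and 4, adjusted p = 0.747 by edgeR's quasi-likelihood test) in proximal and -2.76 ± 1.34 in distal colon (adjusted p = 1). The exact two-sided permutation p of mean log2 CPM was 0.0571 and 0.0857, where 4 against 4 libraries allow no p below 0.0286.

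Stx1a, its syntaxin partner, was at 7.10, 33.0, 28.1 and 21.3 CPM in WT proximal and at 5.62, 1.83, 12.4 and 7.17 CPM in HSCR proximal replicates. In distal colon it was at 3.16, 7.27, 30.7 and 19.3 CPM in WT and at 9.55, 4.38, 5.03 and 3.88 CPM in HSCR. WT libraries were higher on average in both segments, and the groups overlapped in both. Vamp1, a synaptobrevin of motor neurons, was at 23.7, 26.4, 90.2 and 59.2 CPM in WT proximal and 5.87, 3.04, 28.9 and 42.7 CPM in HSCR proximal replicates. It was at 6.67, 22.7, 59.2 and 103 CPM in WT distal and at 10.9, 6.34, 16.7 and 15.5 CPM in HSCR distal replicates, and it was among the 5 genes of the list with the smallest distal p (log2 fold change -1.94 ± 0.71). Vamp2, the main synaptobrevin of central synapses, is also used by secretory cells outside the nervous system. It was at 133, 166, 262 and 237 CPM in WT proximal, 83.8, 59.2, 134 and 136 CPM in HSCR proximal, 83.4, 154, 178 and 165 CPM in WT distal and 118, 123, 77.8 and 104 CPM in HSCR distal replicates. Its level was 59.2 CPM or more in every library, also where Snap25 was near or below 1 CPM. Per kilobase of the deposited gene length it was the highest of the 43 genes in all 4 groups, with 52.3 CPM per kb in WT proximal and 27.7 in HSCR distal colon.

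Of the 10 vesicle proteins, all had log2 fold changes below 0 in both segments, with medians of -1.75 in proximal and -1.93 in distal colon. Syp, which encodes the vesicle membrane protein synaptophysin, was at 14.3, 90.9, 159 and 140 CPM in WT proximal and 3.30, 5.63, 35.3 and 59.2 CPM in HSCR proximal replicates. It was at 1.13, 12.0, 90.6 and 59.9 CPM in WT distal and 31.1, 4.01, 2.96 and 1.10 CPM in HSCR distal replicates, so that WT distal 1 was as low as the lowest HSCR library. Syn1, whose promoter is printed above, was at 15.4, 28.4, 130 and 102 CPM in WT proximal and 2.32, 3.01, 34.8 and 35.2 CPM in HSCR proximal replicates. It was at 4.89, 12.3, 60.3 and 41.4 CPM in WT distal and 24.9, 6.20, 1.27 and 0.480 CPM in HSCR distal replicates. Syn2, its paralog, was at 31.2, 36.5, 125 and 98.7 CPM in WT proximal and 6.89, 6.01, 47.4 and 32.7 CPM in HSCR proximal replicates. It was at 11.6, 44.9, 91.4 and 80.6 CPM in WT distal and 27.5, 8.64, 4.55 and 3.97 CPM in HSCR distal replicates, with a log2 fold change of -2.30 ± 0.80. The distal groups of Syn2 overlapped only through the library labelled HSCR distal 1.

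Sv2c encodes a vesicle glycoprotein that binds botulinum toxin A. Its levels were 5.67, 8.58, 94.1 and 58.0 CPM in WT proximal, 9.59, 3.04, 8.86 and 2.82 CPM in HSCR proximal, 1.42, 6.65, 41.2 and 46.6 CPM in WT distal and 8.88, 0.620, 1.55 and 2.99 CPM in HSCR distal replicates. The difference lay mainly in replicates 3 and 4: WT replicates 1 and 2 were within the range of the HSCR libraries of their segment. For WT distal 2 this held only through the library labelled HSCR distal 1. Sncb, the gene of beta-synuclein, was at 6.82, 9.80, 28.6 and 25.5 CPM in WT proximal and at 0.150, 0.622, 4.47 and 3.50 CPM in HSCR proximal replicates, with no overlap (-3.03 ± 0.98). In distal colon it was at 2.42, 4.49, 10.1 and 7.45 CPM in WT and 5.84, 0.583, 0 and 0 CPM in HSCR replicates. With CPM from raw library totals its proximal groups overlapped, as did those of Cplx2. Syngr1, a synaptogyrin found beyond neurons, was at 16, 16.9, 160 and 108 CPM in WT proximal, 5.35, 2.66, 42.5 and 37.8 CPM in HSCR proximal, 3.77, 7.27, 93.1 and 91.6 CPM in WT distal and 19.6, 1.31, 2.2 and 9.89 CPM in HSCR distal replicates. Although classed as broadly expressed, it spread over the libraries as the neuron-restricted vesicle genes did.

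Among the 8 synaptotagmins and related calcium sensors, 7 had a lower fitted level in proximal and all 8 in distal HSCR colon. Syt1, the fast calcium sensor of release, was at 11.8, 89.6, 289 and 187 CPM in WT proximal and 2.90, 3.18, 39.7 and 47.7 CPM in HSCR proximal replicates. It was at 1.61, 9.68, 138 and 148 CPM in WT distal and at 47.4, 2.73, 1.30 and 0 CPM in HSCR distal replicates. Syt9, a further fast sensor, was at 11.7, 13.7, 32.6 and 17.8 CPM in WT proximal and 6.89, 0.760, 5.24 and 4.38 CPM in HSCR proximal replicates, without overlap (log2 fold change -2.15 ± 0.63, exact permutation p = 0.0286, the smallest possible). In distal colon it was at 2.96, 6.03, 18.2 and 15.9 CPM in WT and 8.38, 1.02, 0.734 and 1.44 CPM in HSCR replicates, overlapping through the library labelled HSCR distal 1. Syt11, which does not bind calcium and is not limited to neurons, was at 39.1, 155, 281 and 188 CPM in WT proximal, 17, 9.19, 98.4 and 74.0 CPM in HSCR proximal, 5.44, 18.1, 163 and 140 CPM in WT distal and 78.2, 2.37, 8.92 and 10.9 CPM in HSCR distal replicates. Syt7, a slow sensor also used in lysosome fusion, had log2 fold changes of 0.08 ± 0.71 in proximal and -0.14 ± 0.73 in distal colon.

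The SNARE regulators were the complexins and Stxbp5l. Cplx1 was at 20.7, 7.23, 56.2 and 46.7 CPM in WT proximal, 0.250, 1.69, 23.0 and 19.4 CPM in HSCR proximal, 2.96, 12.2, 24.8 and 18.4 CPM in WT distal and 20.0, 7.40, 0.0847 and 0.251 CPM in HSCR distal replicates. Cplx2 differed from it in remaining high where neuronal RNA was low. It was at 108, 91.9, 79.9 and 74.3 CPM in WT proximal and 50.8, 37.3, 59.8 and 65.5 CPM in HSCR proximal replicates, with no overlap and a log2 fold change of -0.75 ± 0.25. In distal colon it was at 59.3, 157, 77.8 and 72.6 CPM in WT and 52.5, 75.0, 23.0 and 51.2 CPM in HSCR replicates. Stxbp5l, a tomosyn that holds syntaxin back from fusion, was the lowest of the 43 genes per kilobase in WT proximal colon. It was at 0.933, 0, 5.48 and 1.60 CPM there and at 0.290, 0.702, 0.558 and 3.11 CPM in WT distal replicates, and it had 0 counts in all 4 HSCR distal libraries.

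The active zone and priming group has 9 genes, with medians of -1.30 in proximal and -1.49 in distal colon. Unc13a encodes Munc13-1, the main priming factor of central synapses. It was at 3.52, 14.7, 44.9 and 24.3 CPM in WT proximal, 2.22, 3.35, 14.4 and 13.2 CPM in HSCR proximal, 0.869, 0.225, 34.6 and 19.8 CPM in WT distal and 8.85, 2.55, 2.74 and 2.72 CPM in HSCR distal replicates. Unc13b, which encodes Munc13-2 and has a form outside the nervous system, was at 24.7, 40.9, 37.6 and 30.5 CPM in WT proximal, 40.4, 17.4, 25.1 and 31.1 CPM in HSCR proximal, 24.0, 33.5, 45.4 and 36.4 CPM in WT distal and 22.4, 25.7, 32.7 and 41.9 CPM in HSCR distal replicates. Its groups overlapped throughout, and its log2 fold changes were -0.24 ± 0.31 and -0.18 ± 0.29.

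Rims1 and Rims2 are paralogs that tether vesicles to calcium channels, and their levels differed in pattern. Rims1 was at 85.4, 94.3, 164 and 121 CPM in WT proximal and 162, 11.7, 67.2 and 179 CPM in HSCR proximal replicates. It was at 100, 175, 193 and 227 CPM in WT distal and 93.2, 128, 329 and 341 CPM in HSCR distal replicates. The highest values of Rims1 thus came from HSCR distal 3 and 4, the libraries with the lowest neuron index, although its groups overlapped (log2 fold change 0.34 ± 0.44). Rims2 was at 9.83, 5.21, 15.8 and 10.5 CPM in WT proximal and 3.20, 0.588, 3.12 and 3.00 CPM in HSCR proximal replicates, with no overlap (-2.08 ± 0.61, adjusted p = 0.691 by edgeR's quasi-likelihood test). In distal colon Rims2 was at 2.09, 7.47, 10.6 and 11.5 CPM in WT and 2.65, 3.03, 3.67 and 1.85 CPM in HSCR replicates, where WT distal 1 fell among the HSCR libraries. Bsn, which encodes the giant scaffold bassoon, was at 2.15, 3.52, 36.8 and 14.7 CPM in WT proximal and 0.874, 13.9, 11.6 and 6.81 CPM in HSCR proximal replicates. In distal colon it was at 3.03, 4.21, 13.4 and 17.1 CPM in WT and 3.80, 2.44, 3.56 and 0.388 CPM in HSCR replicates (-1.87 ± 0.79). HSCR proximal 2, with 13.9 CPM of Bsn, was the library rich in epithelial and enteroendocrine RNA.

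The Rab3 group held the largest difference of the list. Rph3a (chr5:121078562-121148155 in mm39, minus strand) encodes rabphilin 3A, a Rab3 effector on vesicles. It was at 20.4, 17.2, 24.5 and 16 CPM in WT proximal and at 0, 0.622, 1.51 and 0.530 CPM in HSCR proximal replicates. In raw counts these were 284, 469, 986 and 370 in WT and 0, 18, 80 and 15 in HSCR. It was at 0.322, 15.2, 14.1 and 9.53 CPM in WT distal and 0.0559, 0.547, 0.0565 and 0 CPM in HSCR distal replicates. The proximal groups did not overlap, and the distal groups overlapped through WT distal 1 alone. The log2 fold change was -4.88 ± 1.06 in proximal (adjusted p = 0.525 by edgeR's quasi-likelihood test) and -5.89 ± 1.55 in distal colon (adjusted p = 1), and the exact permutation p was 0.0286 and 0.0571. Mean CPM in HSCR was 0.0342 times that in WT proximal colon. Without the libraries in doubt the values were -4.46 in proximal and -5.61 in distal colon.

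Rph3a stood out because HSCR proximal 3 and 4, and the library labelled HSCR distal 1, had neuron indices of 6.49, 6.38 and 6.41 and yet 1.51, 0.530 and 0.0559 CPM of Rph3a. WT proximal 1 and WT distal 2, with lower indices of 5.54 and 4.55, had 20.4 and 15.2 CPM. In the same HSCR libraries Rab3c, a Rab3 GTPase itself, was at 50.7, 54.1 and 40.4 CPM. Over all libraries Rab3c was at 32.6, 106, 207 and 146 CPM in WT proximal, 3.02, 3.80, 50.7 and 54.1 CPM in HSCR proximal, 6.44, 22.0, 119 and 122 CPM in WT distal and 40.4, 8.31, 1.95 and 0.388 CPM in HSCR distal replicates. Rab3b was the gene with the highest log2 fold change of the list in both segments, 0.54 ± 0.55 and 0.86 ± 0.69. It was at 29.4, 8.31, 62.4 and 34.5 CPM in WT distal and 110, 16.2, 35.1 and 80.3 CPM in HSCR distal replicates, which overlapped. Rab3a was at 20.2 and 30.4 CPM in HSCR distal 3 and 4, where Rab3c was at 1.95 and 0.388 CPM.

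Membrane retrieval and SNARE recycling are represented by 3 and 2 genes, with medians of -0.96 and -1.06 in proximal colon and -1.06 and -1.27 in distal colon. Dnm1, the neuronal dynamin, was at 49.6, 51.3, 120 and 80.0 CPM in WT proximal, 24.3, 28.1, 55.9 and 43.5 CPM in HSCR proximal, 99.6, 100.5, 63.2 and 60.9 CPM in WT distal and 46.4, 77.9, 7.99 and 20.1 CPM in HSCR distal replicates. Its log2 fold changes were -1.0 ± 0.38 and -1.06 ± 0.63. Amphiphysin (Amph) had log2 fold changes of -0.96 ± 0.77 in proximal and -2.01 ± 0.93 in distal colon. Nsf, the ATPase that takes spent SNARE complexes apart in all cells, was at 39.9, 33.6, 83.2 and 54.5 CPM in WT proximal, 34.9, 37.3, 55.2 and 46.6 CPM in HSCR proximal, 45.7, 43.5, 58.0 and 60.8 CPM in WT distal and 38.8, 33.0, 49.4 and 29.0 CPM in HSCR distal replicates. Its log2 fold changes were -0.29 ± 0.32 and -0.47 ± 0.24. Napb, the neuronal adaptor of Nsf, had log2 fold changes of -1.82 ± 1.01 and -2.06 ± 0.91.

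Across the 16 libraries most of the neuron-restricted genes followed the neuron index and most of the broadly expressed genes did not. The slope of log2 CPM on the index had a median of 0.66 for the 35 neuron-restricted genes, 0.22 for the 8 broadly expressed ones and -0.00344 for the 18619 genes tested. A slope above 0.5 was found for 24 of the 35, for 2 of the 8 (Syt11 and Syngr1) and for 4.73% of all genes. This is a description over libraries that share cell composition and depth with the index, and it carries no test. Rab3c had a slope of 1.02 with an SD of 0.47 (log2) around its line, and Syn1 a slope of 0.90 with an SD of 0.41. Snap25 had a slope of 1.07 (SD 0.86) and Syt1 of 1.40 (SD 1.08). At the other end were Rims1 with a slope of -0.024, Unc13b with 0.021, Rab3b with 0.048, Nsf with 0.099, Cplx2 with 0.13, Syn3 with 0.15 and Vamp2 with 0.19. Of these, Rims1, Rab3b, Cplx2 and Syn3 are classed as neuron-restricted, although their levels did not follow the index here. Dnm1 (0.24), Rims2 (0.33) and Rab3a (0.37), of the same class, also had slopes below 0.5. Rph3a had a slope of 1.13 with the widest SD around the line of the 43 genes, 2.54.

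**Figure D3:**
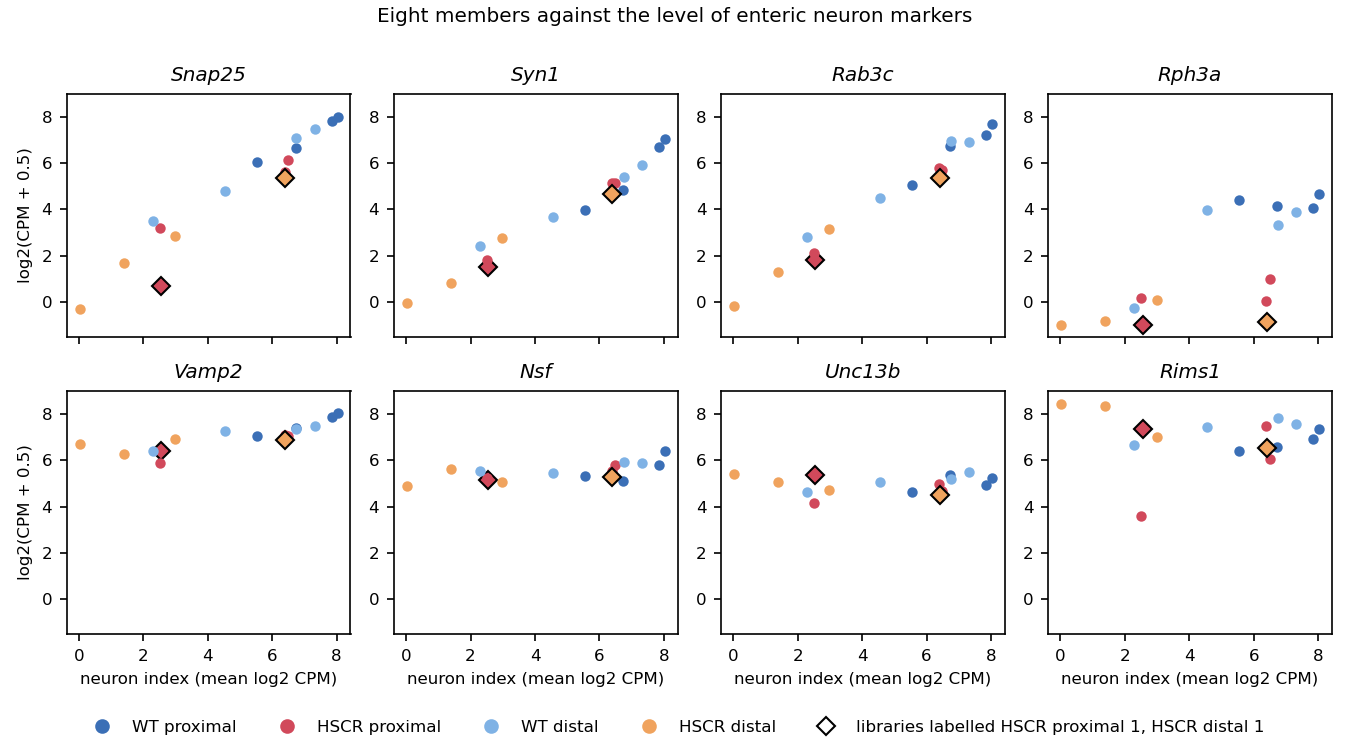
Log2(CPM + 0.5) of 8 genes against the neuron index of each of the 16 libraries, coloured by group, with diamonds for the libraries labelled HSCR proximal 1 and HSCR distal 1. Snap25, Syn1 and Rab3c climb with the index in all groups, Nsf, Unc13b and Rims1 do not, and Vamp2 climbs slightly. For Rph3a the 3 HSCR libraries with an index of 6.38 to 6.49 lie with the neuron-poor libraries and not with WT.

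With the neuron index as a term of the model, an alternative chosen after seeing the data, the median of the neuron-restricted genes was -0.17 in proximal and -0.32 in distal colon, in place of -1.64 and -1.86. Rph3a had a log2 fold change of -4.30 in proximal colon in this fit (unadjusted p = 0.0054 and adjusted p = 0.999 by edgeR's quasi-likelihood test). Rph3a and Sncb (-1.44) were the genes of the list lower at an unadjusted p under 0.05 there, where 1.72% of all genes were. In distal colon Syn2 (-1.19), Snap25 (-1.31) and Rph3a (-4.40) were, where 1.25% of all genes were. None was called in either segment.

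The genotype difference was next compared between the segments in 1 model of all 16 libraries. The median interaction was -0.09 (log2) for the neuron-restricted and 0.09 for the broadly expressed genes, against -0.05 for all genes. None of the 43 was called by edgeR's quasi-likelihood test (0% of all genes), DESeq2 (0.0322%) or the likelihood ratio test (0.0161%), and 2 were called with RUVr factors (against 1.64% of all genes). At an unadjusted p under 0.05 there was 1 gene, Stxbp5l (-5.59 ± 2.19, 0 counts in HSCR distal colon), where 1.44% of all genes passed. Without the libraries in doubt the median of the neuron-restricted genes was -1.31, that is, a larger HSCR deficit in distal colon. Then 2 genes passed with an interaction below 0, where 1.37% of all genes did. The proximal and distal comparisons share no library, but the labels do not say whether they share mice.

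An additive model of both segments treated all libraries as independent, although the labels do not say whether a mouse gave libraries of both segments. In this model 40 of 43 genes were lower in HSCR and 3 were higher (Rab3b, Rims1 and Syt7). The medians were -1.73 for the neuron-restricted and -0.61 for the broadly expressed genes, against 0.08 for all genes. None was called (0 of 43, and 0% of 18619 genes), and the smallest adjusted p by edgeR's quasi-likelihood test was that of Rph3a (0.0984, log2 fold change -5.34 ± 0.97). At an unadjusted p under 0.05, 25 were lower, against 5.52% of all genes, and without the libraries in doubt 28 were, against 5.90%. DESeq2 called 8 (Rph3a, Rims2, Stxbp5l, Sv2c, Syt9, Syn2, Stx1a and Snap25, against 1.86% of all genes). The likelihood ratio test called 4 (Rph3a, Rims2, Sv2c and Syn2, against 0.897%), and that test with RUVr factors called 26 (against 8.93%). Leaving out WT distal 1 raised the count from 0 to 1 in the quasi-likelihood test, where 11 of 19293 genes were called.

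Between segments of the same genotype, the neuron-restricted genes had a median log2 fold change of distal over proximal of -0.77 in WT and -0.84 in HSCR colon, against 0.03 and -0.04 for all genes. In WT none of the 43 was called by edgeR's quasi-likelihood test (0.0181% of all genes), DESeq2 (0.290%) or the likelihood ratio test (0.193%). In HSCR none was called by the same tests, where 0%, 0.0293% and 0% of all genes were. With RUVr factors 18 were called in WT (against 11.2%) and 1 in HSCR (against 2.42%). At an unadjusted p under 0.05, 1 gene was lower in WT distal colon (Sncb, -1.54), against 2.06% of all genes, and none in HSCR, against 0.778%. With the library series as a term 17 genes were lower in WT distal colon (against 5.81%), and none was called. Without the libraries in doubt the HSCR median was -2.24, and 16 of 42 genes were lower in the distal segment at an unadjusted p under 0.05, against 3.14% of all genes. These comparisons use the same libraries as the genotype comparisons above, and they too treat the libraries as independent.

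Broadly expressed relatives of the list gave a reference of the same protein families. Of 16 such counterparts, 8 were lower and 8 higher in HSCR proximal colon, with a median of 0.00465, and 11 were lower and 5 higher in distal colon, with a median of -0.20. None was called, and at an unadjusted p under 0.05, 2 of 16 were lower in proximal and 1 of 16 in distal colon, where 4.13% and 1.76% of all genes were. Snap23, the counterpart of Snap25 outside neurons, was at 62.9 ± 9.93 CPM (SD, n = 4) in WT proximal and 58.1 ± 8.68 CPM in HSCR proximal colon, and at 71.2 ± 24.4 and 56.9 ± 7.78 CPM in WT and HSCR distal colon. Vamp3, a counterpart of Vamp2, was at 116 ± 44.0 and 140 ± 28.4 CPM in WT and HSCR proximal colon. Dnm2, the dynamin of all tissues, had log2 fold changes of 0.42 ± 0.27 and 0.17 ± 0.26, where Dnm1 had -1.0 and -1.06. Napa, the general counterpart of Napb, had -0.05 ± 0.23 and -0.10 ± 0.26. The largest difference among the 16 in both segments was that of Syt17, with -1.76 ± 0.80 and -2.35 ± 0.84. It also was the only counterpart with a slope above 0.5 on the neuron index.

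**Figure D4:**
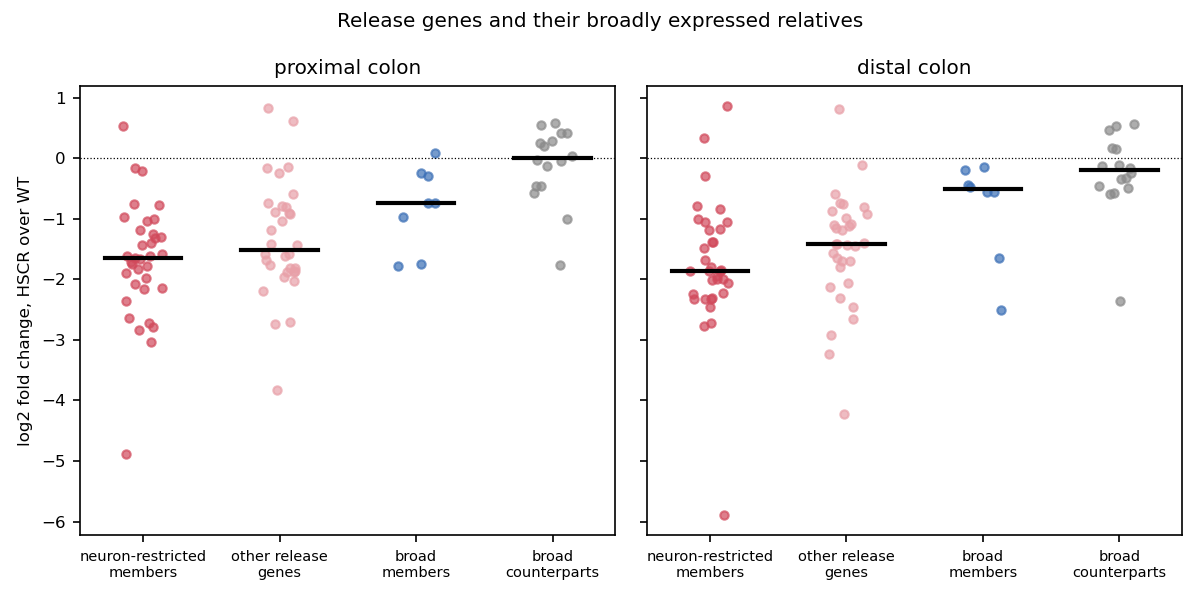
Log2 fold change of HSCR over WT in proximal and distal colon for 4 sets of genes, 1 point per gene, with black bars at the medians. The medians are -1.64 and -1.86 for neuron-restricted genes of the list, -1.51 and -1.41 for other release genes, -0.74 and -0.51 for broadly expressed genes of the list and close to 0 for the broad counterparts.

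Other genes of vesicle release that are not in the list differed mostly in the same direction as its neuron-restricted genes. Of 35 such genes, 32 were tested, of which 30 were lower in HSCR proximal colon (median -1.51) and 31 in HSCR distal colon (median -1.41). None was called. At an unadjusted p under 0.05, 7 of 32 were lower in proximal and 6 of 32 in distal colon, where 4.13% and 1.76% of all genes were. Of the 32, 16 had a slope above 0.5 on the neuron index. The largest difference was that of Unc13c, which encodes Munc13-3. It was at 21.5, 33.5, 18.2 and 13.5 CPM in WT proximal, 0.250, 0.864, 1.97 and 3.07 CPM in HSCR proximal, 1.48, 26.5, 8.47 and 11.4 CPM in WT distal and 1.34, 0.583, 0.0565 and 0.502 CPM in HSCR distal replicates. Its log2 fold changes were -3.83 ± 0.74 and -4.22 ± 1.09, and like Rph3a it was low in HSCR proximal 3 and 4 and in the library labelled HSCR distal 1, and in WT distal 1. Nrxn3, an adhesion molecule of the presynaptic membrane, had -2.71 ± 1.23 and -2.92 ± 1.42. The 6 enteric glia markers had medians of -1.78 and -1.15, whereas 6 smooth muscle markers had medians of -0.18 and 0.10. Smooth muscle RNA was not even across the proximal libraries, as HSCR proximal 2 held far less of it than the others.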

How the data were processed

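Per the study's methods and the submitters' processing notes, the authors aligned reads to mm39 with HISAT2 2.2.1 and assigned them to GENCODE genes with featureCounts 2.0.6. The values used here are the raw counts per gene that the authors deposited. Their normalized values and their own comparisons (fold changes, p-values) were not used. Groups came from the sample titles. Counts were tested in edgeR 4.0.16 (filterByExpr, TMM, glmQLFit, glmQLFTest) over all genes with Benjamini-Hochberg adjustment, and a call needed an adjusted p under 0.05 and a log2 fold change beyond 1. Levels are CPM with TMM-scaled totals, log2 values use a prior count of 0.5, and single genes were compared by exact permutation over 70 regroupings. DESeq2 1.42.0, likelihood ratio tests, RUVr factors (computed from deviance residuals), other normalizations and left-out libraries were alternatives. Scripts were tested on simulated data. Libraries were made from poly(A) RNA, and whether strand was counted is not given in the sources used here, so antisense overlap cannot be separated. Nothing in the labels says whether libraries come from separate mice, so p-values measure the spread between libraries. Values in every library are given for the core genes of each step and for the 5 genes with the smallest p in the proximal and in the distal genotype comparison. The genes, lists and tests were chosen with earlier results of these data known. One marker gene of the original neuron list is not reported here and was left out of the neuron index.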

Additional observations from a re-analysis of the deposited data

Results flagged for a closer look

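In 4 of 172 groups of 4 libraries, 1 library lay far from the others. This was measured on log2 CPM as its gap to the nearest library over the range of the group. Chance alone gives about 1 such group in 20. The levels below are in CPM, not log2. Unc13a was highest in the library labelled HSCR distal 1 (gap of 0.944 of the range, 8.85 CPM against 2.55 to 2.74). Rims2 was lowest in HSCR proximal 2 (0.962, 0.588 CPM against 3.00 to 3.20), the library rich in epithelial RNA. Synj1 was lowest in WT proximal 1 (0.851, 10.8 CPM against 49.5 to 64.6), the library with 49.8% mitochondrial counts. Rph3a was lowest in WT distal 1 (0.877, 0.322 CPM against 9.53 to 15.2), whose neuron index was 2.30.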

How the results depend on the processing

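The count of called genes was 0 in every comparison in the quasi-likelihood test, also with upper quartile or DESeq2 size factors, without a filter, with a fold limit of 1.5 or none, with all 16 libraries in 1 fit, with the library series as a term and with the neuron index as a term, and it depended on the test. DESeq2 called 3 in proximal colon (against 1.09% of all genes), 1 in distal colon (against 0.129%) and 8 with both segments (against 1.86%). The likelihood ratio test called 1 in proximal colon (against 0.414%) and 4 with both segments (against 0.897%). With RUVr factors it called 30 in proximal colon (against 16.1%), 24 in distal colon (against 6.67%) and 2 for the interaction (against 1.64%). It called 26 with both segments (against 8.93%), 18 between the WT segments (against 11.2%) and 1 between the HSCR segments (against 2.42%). Leaving out 1 library gave 0 calls in each comparison, except 0 to 1 with both segments (1 without WT distal 1, where 11 of 19293 genes were called). The median of the neuron-restricted genes then ranged from -2.04 to -1.24 in proximal colon, -3.16 to -1.27 in distal colon, -1.20 to 0.46 for the interaction, -2.15 to -1.41 for both segments, -1.22 to -0.27 for the WT segments and -2.03 to -0.53 for the HSCR segments. At an unadjusted p under 0.05 the lower genes of the list are given beside the share of all genes. In proximal colon they were 22 with DESeq2 (against 5.90%), 34 with RUVr factors (against 14.5%) and 7 with all 16 libraries in 1 fit (against 3.01%). In distal colon they were 15 with DESeq2 (against 3.10%), 12 with the likelihood ratio test (against 2.27%) and 31 with RUVr factors (against 10.3%). They were 12 there without a filter (against 1.98%) and 11 with all 16 libraries (against 2.31%). With the neuron index as a term the medians were -0.17 (proximal) and -0.22 (both segments).

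Signs turned for a few genes. In proximal colon Syn3 was at 1.63 with RUVr factors, 0.90 with the replicate block and 0.56 with the library series, and from -0.63 to 1.05 when 1 library was left out (above 0 without WT proximal 3 or HSCR proximal 1). Syt7 was at -0.55 with RUVr factors and -0.38 with the block, and from -0.24 to 0.48 (below 0 without WT proximal 1, WT proximal 4, HSCR proximal 2 or HSCR proximal 3). Rims1 ranged from -0.56 to 0.22 (above 0 without WT proximal 3, HSCR proximal 2 or HSCR proximal 3), and Bsn from -1.17 to 0.25 (above 0 without WT proximal 3). In distal colon Syn3 was at 0.16 with the block and 0.00011 with the series, and from -1.18 to 0.42 (above 0 without WT distal 4). Syt7 ranged from -0.54 to 0.24 (above 0 without WT distal 3, WT distal 4 or HSCR distal 4). Sv2a was at 0.89 with RUVr factors and 0.43 with the series. Unc13a was at 0.034 and 0.018, and Rab3a at 0.063 and 0.042, with RUVr factors and with the block. Rab3a was at 0.080 with the series and ranged from -0.64 to 0.13 (above 0 without WT distal 3). The cause was not tested. In the paired fit with the replicate block 0 genes were called in any comparison, and the medians were -1.95 (proximal), -2.14 (distal), 0.67 (interaction), -1.54 (both segments), -1.07 (WT) and -1.13 (HSCR). Correlations of same-numbered samples ranged from -0.21 to 0.43, and between the WT segments from 0.096 to 0.42. Not every pair was above 0.1 in any comparison, and although library names share a number in replicates 1 and 2, the labels do not say what it marks, so the numbers were not taken to pair the samples. With the block the genes lower at an unadjusted p under 0.05 were 29 in place of 14 (proximal) and 3 in place of 7 (distal). They were 17 in place of 25 (both segments) and 20 in place of 1 (WT segments). The shares of all genes with the block were 5.05% (proximal), 2.15% (distal), 5.21% (both segments) and 4.88% (WT segments). Without it they were 4.13%, 1.76%, 5.52% and 2.06%. Depth limits Stxbp5l and, where libraries hold few neurons, genes with counts near 0.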
